A study of Homo sapiens with 6 samples.

Results

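Sister chromatid cohesion is made in S phase and undone in mitosis, and 7 genes that encode its regulators are described here in HAP1 cells with wild-type or substituted CTCF. They were chosen by function and matched by Ensembl identifier: ESCO1 and ESCO2, which acetylate cohesin, HDAC8, which deacetylates it, CDCA5 and SGOL1 (now SGO1), which protect it, and PTTG1 and ESPL1, which control its cleavage. Earlier results of these data were known when these genes and the gene lists below were chosen. The 7 are among 57773 genes in the count table, and each of the 7 had enough counts to be tested. HAP1 is an established human line of chronic myeloid leukaemia origin that carries a nearly haploid genome. One group of 3 polyA RNA-seq libraries came from wild-type HAP1 cells (WT) and the other group of 3 from HAP1 cells carrying CTCF Y226A, F228A, here called the mutant. The substitutions were introduced with Cas9, a guide to CTCF and a repair oligonucleotide, and puromycin-selected clones were sequenced for the edit. The labels name neither separate clones nor separate cultures. What the substitutions did and what a selected clone brought with it therefore cannot be told apart, and the p-values refer to library-to-library spread, which may be technical.

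Cohesin is a ring of SMC1A, SMC3, RAD21 and a STAG subunit that folds chromatin into loops in interphase and holds sister chromatids together after replication. Establishment of cohesion requires acetylation of SMC3 by ESCO1 or ESCO2 and binding of sororin, the product of CDCA5, which keeps the release factor WAPL from opening the ring. In mitosis most arm cohesin leaves by the WAPL route while shugoshin, the product of SGOL1, guards the centromere with the phosphatase PP2A. Separase, the product of ESPL1, cuts RAD21 at anaphase once securin, the product of PTTG1, has been degraded, and HDAC8 then removes the acetyl groups so that SMC3 can be used again. The substituted CTCF residues lie in an N-terminal segment that binds the STAG and RAD21 face of cohesin, a surface that shugoshin also uses.

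The libraries held 7764009 to 9610028 gene counts, in overlapping ranges for the genotypes. CTCF itself, the edited gene, lay at 106 to 111 CPM (counts relative to library size, scaled by the TMM method) in the wild type and at 131 to 140 CPM in the mutant (edgeR adjusted p = 4.20e-04). Its substituted bases cannot be seen in gene counts. In bulk RNA, fewer cells in a cell cycle phase and less RNA per cell cannot be told apart, which bears on every gene below.

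Divided by transcript length, securin mRNA was the most abundant of the 7 in the wild type and ESCO2 mRNA the least abundant. On the scale of CPM per kb of transcript, wild-type levels were 87.1 ± 1.78 for PTTG1, 56.4 ± 1.14 for CDCA5 and 28.3 ± 2.86 for SGOL1 (mean ± SD, n = 3 libraries). They were 19.6 ± 1.91 for ESPL1, 19.4 ± 2.15 for HDAC8, 12.4 ± 0.705 for ESCO1 and 9.95 ± 0.621 for ESCO2. The inhibitor securin thus had several times the mRNA level of its target separase. The wild-type ranges of ESPL1 and HDAC8 overlapped, and those of the other neighbours in this order did not. In the mutant the order differed at the acetyltransferases, with ESCO2 at 12.1 ± 1.17 and ESCO1 at 11.6 ± 0.455, and these ranges overlapped. ESPL1 stood at 26.1 ± 1.18 in the mutant, within the range of SGOL1 (26.0 to 32.5), while HDAC8 was at 20.5 ± 1.63. The lengths are medians over the principal annotated transcripts of each gene, and the isoforms in use were not measured. For SGOL1 the median was 1346.5 bases, while its annotated exons together cover 3828 bases. The order of the genes depends on these lengths.

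Of the cohesin acetyltransferases, ESCO2 was higher in the mutant and ESCO1 was not called. ESCO1 (ENSG00000141446.6, chromosome 18) encodes the acetyltransferase that acts through interphase and binds cohesin through PDS5. It stood at 55.9, 59.5 and 53.2 CPM in wild-type replicates 1, 2 and 3 and at 50.0, 53.9 and 53.2 CPM in mutant replicates 1, 2 and 3. The groups overlapped, and the log2 change was -0.10 (95% interval -0.26 to 0.05, edgeR adjusted p = 0.378). ESCO2 (ENSG00000171320.10) encodes the S-phase enzyme whose loss causes Roberts syndrome. Its values were 37.7, 37.5 and 41.8 CPM in the wild type and 42.2, 49.6 and 50.6 CPM in the mutant. All mutant libraries lay above all wild-type libraries, but mutant replicate 1 exceeded wild-type replicate 3 by a small margin. The rise was 1.22-fold (log2 0.28, SE 0.0874, 95% interval 0.10 to 0.47, edgeR adjusted p = 0.0232). The ESCO2 call was lost with DESeq2 (adjusted p = 0.0899) and in the edgeR fits without wild-type replicate 1 (0.0923), wild-type replicate 2 (0.0731), mutant replicate 2 (0.1002) or mutant replicate 3 (0.126).

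HDAC8 (ENSG00000147099.15), which resides on chromosome X and encodes the SMC3 deacetylase, was not called. Its libraries gave 31.1, 38.2 and 32.5 CPM in the wild type and 36.6, 32.7 and 38.2 CPM in the mutant. The groups overlapped over most of their range. The log2 change was 0.09 with a 95% interval of -0.11 to 0.28 (edgeR adjusted p = 0.578). HDAC8 had only 252 to 362 counts per library, and its SE of 0.0950 was among the widest of the 7 genes. In GENCODE v29 it shares 1193 exonic bases with the protein-coding gene AL133500.1 on the same strand. AL133500.1 is not among the counted genes, so HDAC8 counts may include its reads, to an extent not measured. Of the other class I histone deacetylases, which act on chromatin, HDAC3 was called higher (log2 0.18, edgeR adjusted p = 0.0446). HDAC1 and HDAC2 were not called, at log2 changes of 0.11 and -0.10. The HDAC3 call rested near the threshold and was lost with DESeq2 (adjusted p = 0.152), with RLE scaling (0.0566), with upper-quartile scaling (0.0773), with no filter beyond 1 count (0.0776) and without any single library (0.0504 to 0.207).

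The protectors of cohesin were not called. CDCA5 (ENSG00000146670.5, chromosome 11) encodes sororin, which is recruited to acetylated cohesin. Its level was 147.9, 147.5 and 142.6 CPM in the wild type and 141.9, 152.0 and 145.8 CPM in the mutant. These libraries lay close together in both genotypes, with coefficients of variation of 2.02% and 3.48%. The log2 change was 0.00 with a 95% interval of -0.11 to 0.12, or 0.926- to 1.09-fold (edgeR adjusted p = 0.967), and its sign turned negative with DESeq2, with RLE or upper-quartile scaling, and without wild-type replicate 3 or mutant replicate 2. SGOL1 (ENSG00000129810.10, chromosome 3) encodes the centromeric protector shugoshin. It had 34.3, 42.0 and 38.2 CPM in the wild type and 35.0, 43.8 and 42.1 CPM in the mutant, again in overlapping ranges. Its log2 change was 0.08 with a 95% interval of -0.12 to 0.28 (edgeR adjusted p = 0.608). SGOL1 shares 679 exonic bases with the antisense gene SGO1-AS1, which had 0 counts in each of the 6 libraries. Its paralogue SGOL2, the main shugoshin of meiosis, stood at 82.9 ± 12.7 CPM in the wild type and 82.2 ± 4.93 CPM in the mutant and was not called (edgeR adjusted p = 0.952).

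The cleavage genes differed: separase mRNA rose, and securin mRNA was not called. ESPL1 (ENSG00000135476.7) spans bases 53268299 to 53293643 of chromosome 12 in GRCh38. It gave 135.9, 114.0 and 135.2 CPM in the wild type and 172.4, 177.7 and 162.5 CPM in the mutant. The lowest mutant library lay well above the highest wild-type library, and wild-type replicate 2 was the lowest of all. The rise was 1.33-fold (log2 0.41, SE 0.0658, 95% interval 0.27 to 0.55, edgeR adjusted p = 8.19e-05), from 128 ± 12.5 to 171 ± 7.72 CPM (mean ± SD, n = 3 each). At 896 to 1539 counts per library, ESPL1 was among the better measured of the 7 genes. PTTG1 (ENSG00000164611.8), whose product holds separase inactive, spans 160421822 to 160428744 of chromosome 5. It gave 76.1, 79.1 and 78.6 CPM in the wild type and 82.5, 81.0 and 82.2 CPM in the mutant. Each mutant library was above each wild-type library, yet the gap was small. The fold was 1.05, with a 95% interval of 0.960 to 1.15 (edgeR adjusted p = 0.469). Reads without a unique alignment (11.5 to 12.6% per library of the reads tallied with or without a gene) were left out of the gene counts. PTTG1 has near-identical processed copies, so its counts are uncertain and may be too low, to an extent not measured. Of the copies, PTTG2 had 0 counts in all 6 libraries, and PTTG3P had 16.3 ± 0.975 CPM in the wild type and 19.2 ± 1.65 CPM in the mutant without a call (edgeR adjusted p = 0.162).

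**Figure D1:**
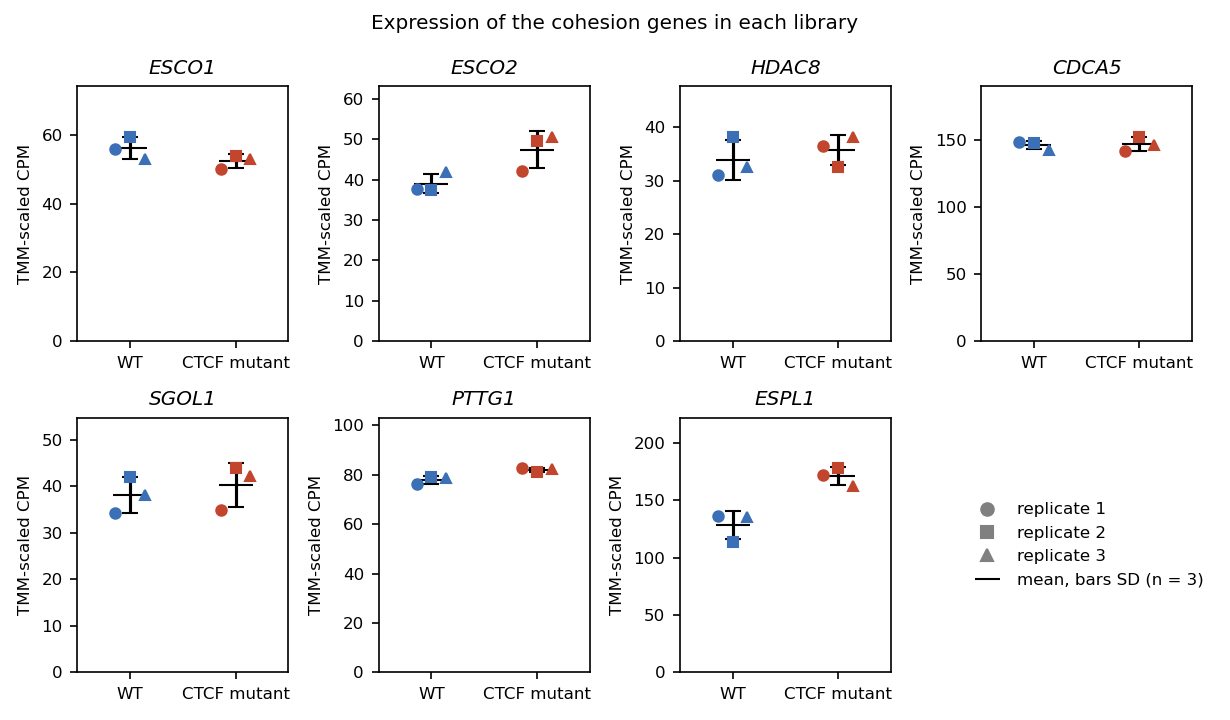
Each panel shows TMM-scaled CPM (vertical axis from 0) of 1 gene in the 3 wild-type and 3 mutant libraries, with symbols for replicate numbers and black bars for mean and SD. ESPL1 separates the genotypes clearly (114 to 136 against 162 to 178 CPM), ESCO2 and PTTG1 do so narrowly, and the other 4 genes overlap.

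The sequences just before the annotated starts of the protease gene and its inhibitor gene are shown because 1 of this pair was called and the other was not. They come from RefSeq (GRCh38.p14), on the plus strand, at chr12:53268179-53268298 for ESPL1 and at chr5:160421702-160421821 for PTTG1. Capitals mark TTTGAA, a form of the cell cycle homology region bound by the DREAM and MuvB complexes, and the CCAAT box of NF-Y on either strand (ATTGG on the strand shown).
ESPL1: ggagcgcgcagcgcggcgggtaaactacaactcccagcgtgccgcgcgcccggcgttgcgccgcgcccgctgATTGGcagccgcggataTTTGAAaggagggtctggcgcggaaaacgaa
PTTG1: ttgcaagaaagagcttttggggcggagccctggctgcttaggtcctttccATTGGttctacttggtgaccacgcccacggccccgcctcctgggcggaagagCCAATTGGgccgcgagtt
Upstream of ESPL1, TTTGAA began 31 bases before the start and the CCAAT box, on the opposite strand, 48 bases before it. The capital run CCAATTGG of PTTG1 holds overlapping CCAAT boxes on both strands. Its sense CCAAT began 51 bases before the first of 2 RefSeq starts of PTTG1. The PTTG1 stretch thus ends upstream of that start, while the ESPL1 stretch ends at its RefSeq start. The related form TTTAAA, which reads the same on both strands, began 29 bases before that first start of PTTG1, downstream of the stretch shown. Its absence from the stretch follows from the window, and the relation of these sequences to the calls was not tested. In the 250 bases before the start, 13.3% of 35116 RefSeq promoters held TTTGAA on either strand, 11.3% TTTAAA and 32.0% CCAAT. The promoter of SGOL1 held CCAAT, that of CDCA5 the E2F-type motif TTCCCGC (present in 5.52% of promoters), and that of HDAC8 none of these. These matches are descriptions of letters in a window, and no binding was measured here.

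Across the 7 genes, 2 were called higher and 0 lower, and 5 were not called. Among all 14835 tested genes, edgeR called 21.2% in either direction at an adjusted p under 0.05, 11.9% higher and 9.26% lower. The called share of the 7 genes, 28.6%, was thus near the background. No member was lower at an unadjusted p under 0.05 with edgeR, and 0 were called lower with DESeq2 or limma-voom. For ESCO2, ESPL1 and PTTG1 (3 of the 7 genes) every mutant library exceeded every wild-type library, and the groups were non-overlapping in either direction for 35.5% of all tested genes. The median log2 change of the 7 genes was 0.08, and that of all tested genes -0.001. Only ESPL1 kept its call in all 12 alternative fits, with log2 changes from 0.33 to 0.45 and adjusted p-values up to 0.00105. The number of members called higher was 1 wherever ESCO2 lost its call.

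**Figure D2:**
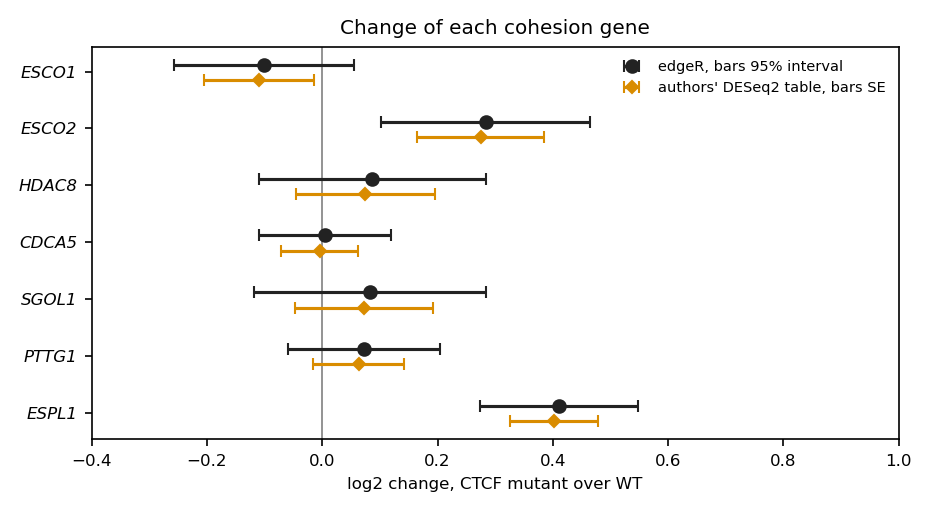
The horizontal axis is the log2 change of mutant over wild type for each gene, from the edgeR fit with 95% intervals (circles) and from the authors' deposited table with SE (diamonds). The 95% intervals of ESPL1 and ESCO2 lie above 0, and those of the other 5 genes include 0.

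For the 5 genes without a call, the data bound the size of a change. Their 95% intervals ran from 0.837-fold (ESCO1, lower bound) to 1.22-fold (HDAC8 and SGOL1, upper bounds). A p above the threshold does not show that these levels were equal. In the authors' deposited table ESPL1 has a log2 fold change of 0.40 (SE 0.0763) with an adjusted p of 4.08e-06. The authors' deposited table lists ESCO2 at 0.27 (SE 0.110) with an adjusted p of 0.0687, above the threshold used here. The other 5 genes are listed in the authors' deposited table at adjusted p-values of 0.515 to 0.985.

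Ratios between members within a library do not depend on library scaling. For separase to securin mRNA, all mutant ratios exceeded all wild-type ratios. Per kb of transcript, ESPL1 stood at 0.244, 0.197 and 0.236 of PTTG1 in the wild type and at 0.286, 0.300 and 0.271 in the mutant. The geometric mean ratio was 1.27-fold higher in the mutant. ESCO2 relative to its paralogue ESCO1 was 0.778, 0.727 and 0.907 in the wild type and 0.972, 1.06 and 1.10 in the mutant, again without overlap. That ratio was 1.30-fold higher. Both differences had a two-sided exact permutation p of 0.10, which is the smallest that 3 libraries against 3 allow (0.20 when adjusted over the 4 ratios examined). These ratios therefore could not reach 0.05 by this test.

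The balance of deacetylase to acetyltransferase mRNA and that of the protectors did not separate the genotypes. HDAC8 relative to the sum of ESCO1 and ESCO2 was 0.809, 0.961 and 0.830 in the wild type and 0.959, 0.760 and 0.887 in the mutant. The fold of this ratio was 1.00 (exact permutation p = 1.0). SGOL1 relative to CDCA5 was 0.445, 0.547 and 0.514 in the wild type and 0.473, 0.554 and 0.555 in the mutant. The fold was 1.05 (exact permutation p = 0.50), and the ranges overlapped.

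Among the substrates and immediate partners of these regulators, the ring, loader and release genes included 5 of 10 members called higher and 0 lower, against 11.9% and 9.26% of all tested genes. Because this list and those below were chosen with earlier results known, their counts are descriptions and not independent tests. At an unadjusted p under 0.05, 1 was lower in edgeR (SMC3), and DESeq2 and limma-voom called 0 lower. The number higher was 3 without wild-type replicate 1 or without mutant replicate 2. STAG1, the alternative cohesin subunit with the largest change, went from 62.7 ± 4.15 to 170.4 ± 6.74 CPM. STAG2 and the loader NIPBL rose by 0.27 and 0.30 on the log2 scale. PDS5A and PDS5B, the docking subunits through which sororin and ESCO1 reach cohesin, rose by 0.17 and 0.21 (edgeR adjusted p = 0.0153 and 0.0231), PDS5B being named after its value was seen. The PDS5A call was lost without wild-type replicate 1 (0.09995), mutant replicate 2 (0.114) or mutant replicate 3 (0.0717). PDS5B was not called by DESeq2 (0.0792) or when the wild-type library numbered 1 (0.0709) or 3 (0.0786) was left out, nor with mutant replicate 2 left out (0.163). The ring subunits SMC3, the target of the ESCO enzymes and HDAC8, and RAD21, the target of separase, were named after their values were seen. They stood at log2 changes of -0.13 and 0.11 and were not called (edgeR adjusted p = 0.105 and 0.156). Their antagonist WAPAL (now WAPL), named likewise, was at 0.06 (edgeR adjusted p = 0.551).

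Genes that couple cohesion establishment to the replication fork were not called in either direction. Of the 10 tested (the alternative clamp loader genes CHTF18, CHTF8 and DSCC1, the fork genes WDHD1, TIMELESS, TIPIN and CLSPN, the helicase genes DDX11 and BRIP1, and the clamp gene PCNA), edgeR called 0 higher and 0 lower. Of all tested genes, edgeR called 11.9% higher and 9.26% lower. At an unadjusted p under 0.05, 1 of the 10 fork genes was lower (TIPIN), DESeq2 called 0 and limma-voom called 1. The median log2 change of this list was 0.01. ESCO2 had a log2 change of 0.28 in the same libraries, and its relation to the fork genes was not tested.

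Most partners of shugoshin and of prophase removal were not called either. The list held 19 tested genes: SGOL2, GSG2, BUB1, PLK1 and those for the phosphatase PP2A, the chromosomal passenger complex and CDK1 with cyclin B. Of these, 1 was higher, 0 were lower and 18 were not called, with a median log2 change of 0.05. The called share was 5.26%, against 21.2% of all tested genes. The 1 called gene was GSG2 (now HASPIN), a histone H3 kinase that recruits the passenger complex to centromeres. It stood at 37.7 ± 1.02 CPM in the wild type and 45.8 ± 2.31 CPM in the mutant, a rise of 1.22-fold (edgeR adjusted p = 0.0135). GSG2 missed the threshold with DESeq2 (adjusted p = 0.0665), as it did when wild-type replicate 3 was left out (0.0639). The 0 lower genes were also 0 at an unadjusted p under 0.05 with edgeR, and 0 with DESeq2 and limma-voom. BUB1, the kinase that marks centromeres for shugoshin, was at log2 0.02 and was named after its value was seen.

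The anaphase-promoting complex is the ubiquitin ligase that degrades securin. The list of its subunits and regulators, among them CDC20, FZR1, UBE2S and FBXO5, had 4 of 18 tested genes lower and 1 higher. The median log2 change was -0.15. Counts given below for the complex refer to this mixed list. The called share of 27.8% in either direction was near the 21.2% of all tested genes. By direction, the 4 lower stood against 9.26% of all tested genes and the 1 higher against 11.9%. At an unadjusted p under 0.05 in edgeR, 9 of the 18 were lower and 3 higher, and 5 of the 18 had a positive log2 change. The core subunit genes ANAPC1 and ANAPC5 fell from 84.1 ± 5.74 to 66.8 ± 3.67 CPM and from 327.5 ± 5.05 to 277 ± 7.10 CPM (edgeR adjusted p = 0.00183 and 6.53e-04). ANAPC10, the subunit that helps recognise substrates, fell from 12.2 ± 1.47 to 8.83 ± 0.503 CPM (edgeR adjusted p = 0.0260). ANAPC10 was not called by DESeq2 (adjusted p = 0.126) or when wild-type replicate 2 (0.124) or mutant replicate 2 (0.0785) was left out. CDC26 fell from 2.37 ± 0.863 to 0.789 ± 0.349 CPM, a low level at which the call was lost without wild-type replicate 1 (0.0640). CDC26 is uncertain, since 208 of its exonic bases overlap PRPF4 on the opposite strand and the strand setting of the counting is not given in the sources used here. FZR1, an activator of the complex in late mitosis and G1, was the gene called higher (log2 0.24, edgeR adjusted p = 0.0281, named after its value was seen). FZR1 was not called by DESeq2 (0.0988) or when wild-type replicate 1 (0.0501), 2 (0.0659) or 3 (0.0917) or mutant replicate 1 (0.0885) or 3 (0.103) was left out. The activator CDC20, which triggers securin destruction, was at log2 0.15 without a call (edgeR adjusted p = 0.0871) and was named after its value was seen. UBE2C, with 1.40 ± 0.440 and 0.916 ± 0.139 CPM, had too few counts to be tested. Of 10 genes listed for the spindle checkpoint, which restrains this complex, edgeR called 0 in either direction, against 21.2% of all tested genes. The count was also 0 at unadjusted p under 0.05, by DESeq2 and by limma-voom.

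**Figure D3:**
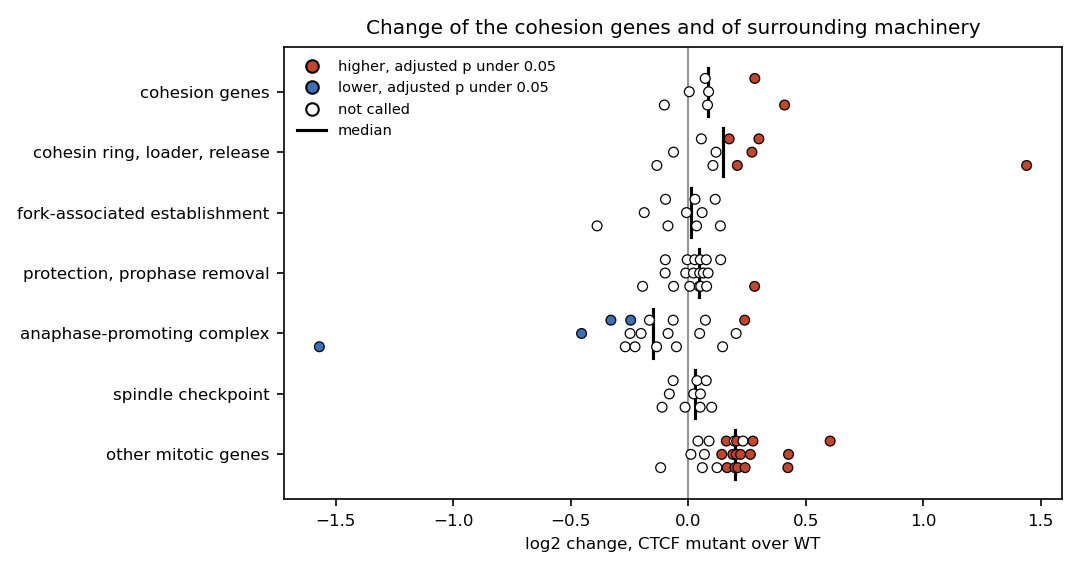
Each point is the log2 change (mutant over wild type) of 1 tested gene, grouped by role, filled where the edgeR adjusted p was under 0.05, with a bar for the list's median. The anaphase-promoting complex with its regulators has its median left of 0 (-0.15), the other mitotic genes have theirs at 0.20, and the 7 cohesion genes theirs at 0.08.

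Most genes on a list of other mitotic genes were called higher in the same libraries, but mitotic genes placed in the lists above are not part of it. Of those lists, the spindle checkpoint had 0 of 10 genes called, and protection and prophase removal 1 of 19 (higher). The anaphase-promoting complex with its regulators had 1 higher and 4 lower of 18. Of the 24 other mitotic genes tested, 15 were called higher (against 11.9% of all tested genes), 0 lower and 9 not called. A positive log2 change was found for 23 of the 24, against 49.7% of all tested genes, with a median of 0.20 against -0.001. None was lower at an unadjusted p under 0.05 in edgeR, and DESeq2 and limma-voom called 0 lower. The number higher was 9 without wild-type replicate 1 and 8 without wild-type replicate 3, mutant replicate 2 or mutant replicate 3. MKI67, the proliferation marker, went from 597 ± 42.3 to 907 ± 73.5 CPM. ASPM, a spindle pole protein gene, went from 220 ± 8.24 to 295 ± 28.6 CPM, and the kinetochore gene CENPF from 534 ± 20.8 to 718 ± 85.1 CPM. TOP2A, which untangles sister chromatids, rose by 0.28 on the log2 scale. The summed level of the 24 genes was 6237 to 6587 CPM in the wild type and 7365 to 7990 CPM in the mutant, 1.20-fold higher on average. Their part in the rises of ESPL1 (1.33-fold) and ESCO2 (1.22-fold) was not tested. CDCA5, SGOL1 and PTTG1 had folds of 1.00, 1.06 and 1.05 in the same libraries, and their relation to the mitotic list was not tested either.

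The genes whose log2 CPM over the 6 libraries was most like that of ESPL1, among 12596 others of sufficient level, were RHOBTB2 (Pearson r = 0.998), TBC1D10A (0.998) and CAMSAP1 (0.995). Of these, TBC1D10A was called higher (log2 0.68, edgeR adjusted p = 0.00722), and RHOBTB2 (0.28, 0.0829) and CAMSAP1 (0.17, 0.0571) were not called. With 6 libraries in 2 genotypes, so high an r needs a shift in the same direction and a similar scatter among the replicates. These genes were picked for their high r. Blood lineage markers were also checked against the leukaemic origin of the line. PTPRC, SPI1 and GATA1 had 0 counts in each of the 6 libraries, and CD34, ITGAM and CD33 were too low to be tested. TAL1 rose from 31.9 ± 2.49 to 67.5 ± 3.57 CPM, RUNX1 fell from 8.90 ± 1.11 to 5.84 ± 0.332 CPM, and KIT, at 22.4 ± 1.03 and 23.6 ± 2.32 CPM, was not called (named with its value known). RUNX1 was not called by DESeq2 (adjusted p = 0.0680) or when wild-type replicate 1 was left out (0.0597).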

How the data were processed

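PolyA RNA was sequenced from 6 HAP1 libraries, 3 per genotype. The authors deposited raw counts per gene. TopHat2 2.1.1, HTSeq, DESeq2 and build hg19 are named in the submitters' processing notes, without roles or a strand setting. The authors also deposited log2 fold changes with SE (log2 scale) and adjusted p-values from DESeq2, per the file headers. Closing totals of reads without a gene (22.4 to 24.3% of gene counts and closing totals together) were set aside. These totals held no unaligned reads, so the shares do not refer to all sequenced reads.

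Counts were analysed with edgeR 4.0.16 in R 4.3.3: filterByExpr kept 14835 genes, TMM scaling, robust quasi-likelihood F test on genotype, Benjamini-Hochberg over all tested genes, threshold 0.05. Standard errors and 95% intervals came from the fitted model. The fit was also run on counts simulated with the same dispersion for all genes, which does not test the intervals on the real spread. Alternatives used DESeq2 1.42.0, limma-voom 3.58.1, other scalings, no filter, a replicate block and each library left out. Ratios used exact permutation tests. Symbols came from the authors' table, otherwise by Ensembl identifier, and covered all 113 listed genes. Transcript lengths and positions are from GENCODE v29 (GRCh38), a build other than that of the counts. RefSeq held promoters for 5 of the 7 genes.

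Members and lists were chosen with earlier results of these data known. Named genes were the 7 members, CTCF, SGOL2, all class I histone deacetylases and securin copies, up to 4 called genes per other list by smallest adjusted p, and the 3 genes most like ESPL1 in pattern (average log2 CPM of at least 2). Replicates differed by more than counting noise.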

Additional observations from a re-analysis of the deposited data

How the results depend on the processing

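All 7 members had 12 alternative fits. The direction of change held in each for ESPL1, ESCO2, HDAC8, PTTG1, SGOL1 (higher) and ESCO1 (lower). CDCA5, at 0.0045 on the log2 scale, was -0.0020 with DESeq2, -0.0026 with RLE scaling, -0.014 with upper-quartile scaling and -0.029 to 0.027 without single libraries. ESCO2 was 0.28 with DESeq2 (adjusted p = 0.0899), and 0.23 to 0.36 without single libraries (adjusted p = 0.00180 to 0.126). The cause was not tested. Fits without single libraries use fewer samples. The number of members called higher was 1 with DESeq2, and 1 to 2 without single libraries. Without single libraries the ratio of HDAC8 to ESCO1 and ESCO2 differed by -0.073 to 0.094 and that of SGOL1 to CDCA5 by -0.012 to 0.15 (log2), and the log2 change of SGOL2 ran from -0.091 to 0.12.

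Replicate numbers were not taken as pairs, since the correlations of same-numbered deviations across genes were 0.15, 0.16 and -0.17, and not every library correlated best with its own number (0.19 for wild-type replicate 2 with mutant replicate 3). With the replicate block, ESPL1 was at 0.41 and ESCO2 at 0.28 (log2, adjusted p = 0.0109), the calls of the 7 members held, 1 ring, loader and release gene and 1 fork gene were called lower, and 2 genes of the anaphase-promoting complex higher. With DESeq2, 0 genes were called higher among protection and prophase removal, the anaphase-promoting complex and class I histone deacetylases, and 0 blood markers lower. HDAC3 gave 0 calls with RLE scaling, upper-quartile scaling and no filter. With limma-voom, 1 fork gene was called lower. Without single libraries, calls numbered 3 to 7 (ring, loader and release, higher), 0 to 1 (fork, lower), 0 to 2 (protection, higher), 0 to 1 (anaphase-promoting complex, higher), 0 (class I deacetylases, higher), 8 to 15 (other mitotic, higher) and 0 to 1 (blood markers, lower). HDAC8 and SGOL1, with 252 to 399 counts per library, had the widest intervals.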
